A study of Rattus norvegicus with 6 samples.

Results

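The 45 genes described here encode the machinery of the cell cycle and of DNA replication: the replicative helicase and its loaders, the cyclins and cyclin-dependent kinases, their inhibitors, the retinoblastoma family with E2f1, and the kinases and checkpoint proteins of mitosis. They were taken by symbol from a fixed list. Of the 45, 38 (84.4%) had at least 1 peak assigned to them in the authors' table of α1ACT-only peaks and 7 had none. Among 18539 protein-coding genes with a curated transcript in RefSeq, 13854 had one (74.7%), and the whole table named 14390 genes. The 38 genes held 233 of its 159452 peaks. The data are chromatin immunoprecipitation sequencing (ChIP-seq) peak lists of PC12, a line derived from a rat tumour of the adrenal medulla. The cells carried either a stably expressed human α1ACT, titled Q11 in the labels, or the empty pCDNA3 vector, and were used at passages 18 to 20. α1ACT is a transcription factor made from the transcript of the calcium channel gene CACNA1A. Chromatin of each line was precipitated with the anti-FLAG antibody M2 or with an antibody labelled 1804, whose target the labels do not name, and each line also had an input. The labels do not say whether either line was a clone, and the design text speaks of tissues where the sample labels name PC12 cells. Each of the 6 groups was 1 library, so no value has a replicate error and no test between groups was made.

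Cells copy their DNA once per division because the helicase is loaded on origins in G1, when cyclin-dependent kinase activity is low, and fired in S phase, when it is high. The D cyclins with Cdk4 and Cdk6 phosphorylate the retinoblastoma proteins, which frees E2F factors to switch on genes of DNA synthesis, and cyclin B with Cdk1 later drives mitosis. PC12 cells divide in serum and leave the cycle when nerve growth factor makes them neuron-like.

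The α1ACT 1804 list was much the longest, with 161730 peaks, against 81 in the α1ACT M2 list, 272 in the empty-vector 1804 list and 244 in the empty-vector M2 list. Every peak of the authors' table was found in the α1ACT 1804 list, so all values of the cell cycle genes come from that 1 library. No peak of the table overlapped a peak of either empty-vector list. Of the 2278 peaks of the α1ACT 1804 list left out of the table, 194 did, and the rule that left out the others is not stated. Each peak was 56 bp wide and has the authors' own signal value, used here to rank peaks within the list. Read depth is unknown. Of 12 chromaffin and sympathetic markers, which mark the cell type of origin of PC12, 6 had a peak within 1000 bp of the transcription start site (TSS), as did 1 of 9 markers of liver, macrophage and muscle, beside 32.9% of all protein-coding genes. A peak list holds no expression, so this does not measure the identity of the cells.

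A peak within 1000 bp of the TSS, called a promoter peak below, was present at 23 of the 45 cell cycle genes (51.1%, exact 95% Clopper-Pearson interval 35.8 to 66.3). Among the 18539 protein-coding genes that have a curated transcript in RefSeq, the 45 included, 6096 had one (32.9%). The genes with a promoter peak were Mcm4, Mcm5, Mcm6, Mcm7, Cdt1, Pcna, Ccnd3, Cdk6, Ccne1, Ccna2, Cdk2, Cdc25a, Wee1, Chek1, Cdkn1c, E2f1, Rb1, Rbl2, Aurkb, Plk1, Bub1, Mad2l1 and Mki67. They came from each of the 9 roles into which the list was divided. The interval covers counting error only, and the list was chosen with earlier results of these data known, so the share is a description of this library.

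The share depended on which peaks were counted. Within 3000 bp of the TSS it was 64.4% (29 genes, interval 48.8 to 78.1), against 39.6% of all genes, and within 500 bp it was 42.2% (19 genes), against 29.3%. With peaks of the upper 50% by signal it was 40.0% (18 genes), against 26.9%. With the upper 10% the cell cycle genes were at the background, with 15.6% (7 genes, 6.49 to 29.5), against 15.1%. Any assigned peak was found at 84.4% of the cell cycle genes (interval 70.5 to 93.5), against 74.7% of all genes. Among genes with an assigned peak, 60.5% of the cell cycle genes had a promoter peak (interval 43.4 to 76.0), against 44.0%. At 1000 and 3000 bp the interval lay above the share of all genes. It included that share in the other 5 cases, which are 500 bp (27.7 to 57.8), the upper 50% by signal (25.7 to 55.7), the upper 10%, any assigned peak, and genes with an assigned peak.

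**Figure D1:**
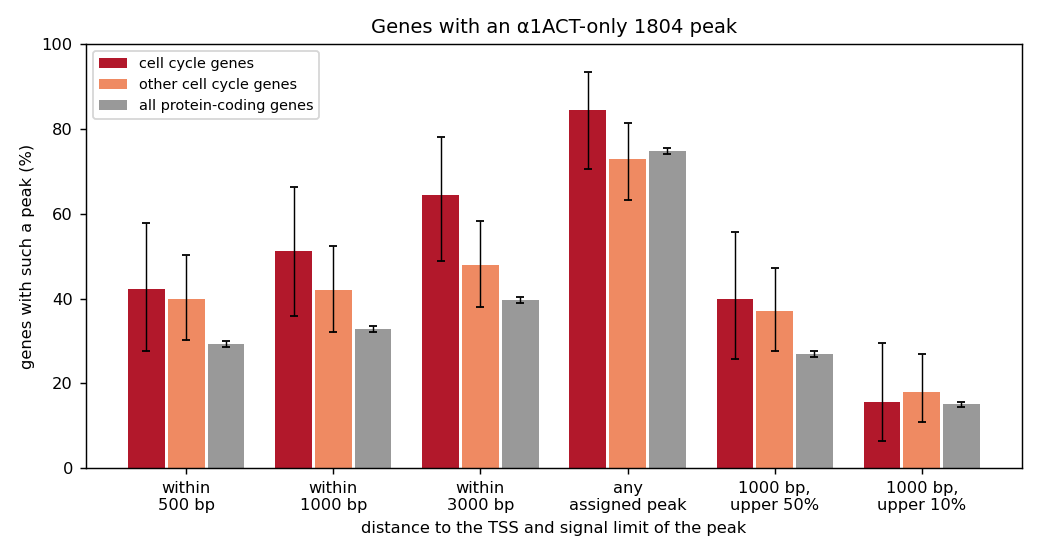
Genes (vertical axis, % of the set) that have a peak in the authors' table under 6 limits on distance to the TSS and on signal (horizontal axis), for the 45 cell cycle genes, 100 other cell cycle genes and all 18539 protein-coding genes. Bars are shares and error bars exact 95% binomial intervals. Within 1000 bp the shares were 51.1%, 42.0% and 32.9%, whereas in the upper 10% by signal they were 15.6%, 18.0% and 15.1%.

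The promoter peaks of the cell cycle genes were of ordinary strength for a promoter. The highest promoter signal per gene had a median of 4.94 over the 23 genes, ranging from 2.21 to 12.8, and its median over the 6096 genes was also 4.94. Of the 23, 11 lay above that median and 12 below it, and Chek1 alone reached the upper 10% of genes, which began at 9.40. Over single peaks the median signal was 4.33 for the 32 promoter peaks of cell cycle genes and 4.36 for all promoter peaks in the table. Multiple peaks were about as frequent: 7 of the 23 genes had 2 or more promoter peaks (30.4%), as did 2140 of the 6096 (35.1%). The authors' −log10 q-value of the 32 peaks ran from 1.47 to 3.89.

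**Figure D2:**
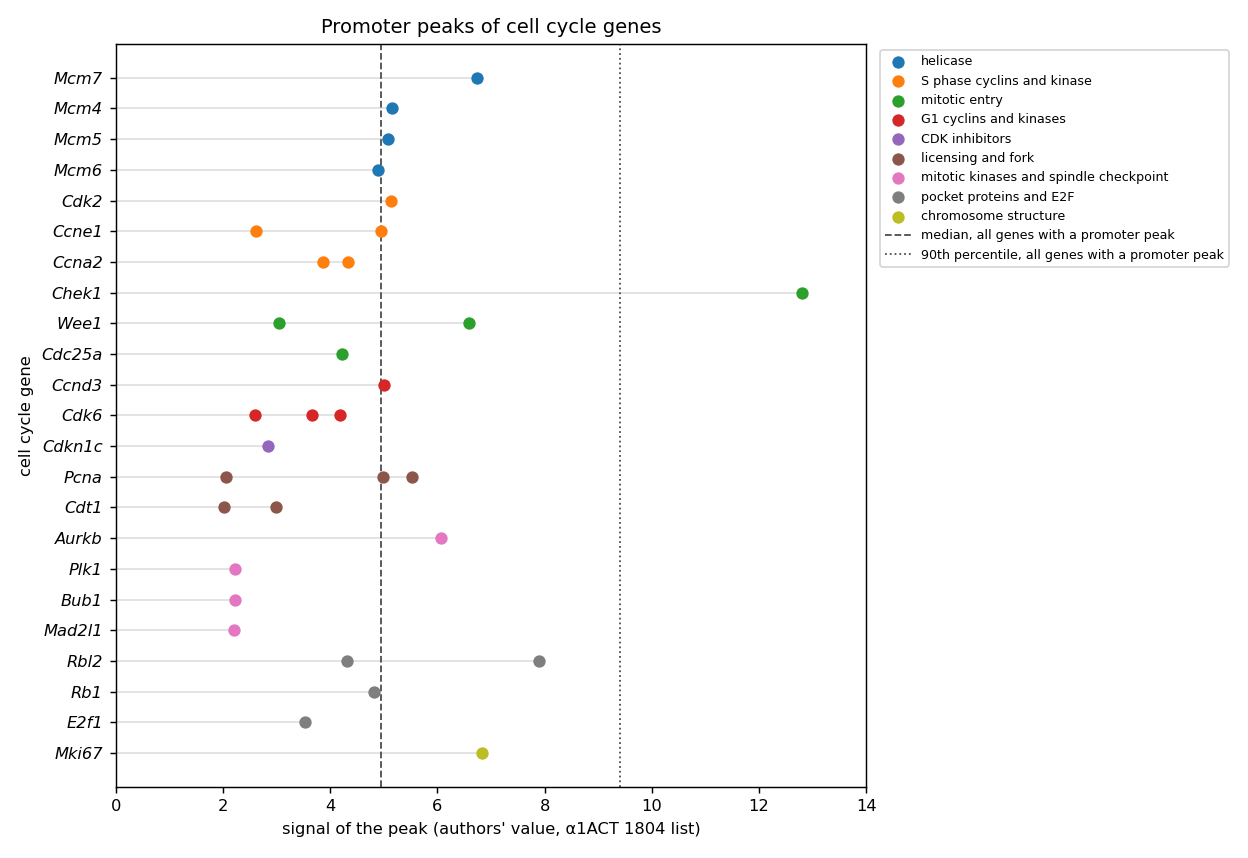
Signal of each promoter peak (horizontal axis, the authors' value) for the 23 cell cycle genes that had one (vertical axis), coloured by role; each point is 1 peak of the single α1ACT 1804 library. The dashed line is the median of the highest promoter signal per gene over 6096 genes (4.94) and the dotted line its 90th percentile (9.40). Chek1, at 12.8, is the only gene beyond the dotted line. By the highest peak per gene, Plk1, Bub1 and Mad2l1 lie lowest, at 2.21 to 2.23. Lower single points are the weakest peaks of Cdt1, at 2.02, and Pcna, at 2.06.

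The MCM proteins form the ring-shaped helicase that unwinds DNA ahead of the fork. Of its 6 subunit genes, 4 had a promoter peak, beside 32.9% of all protein-coding genes. Each of the 4 had exactly 1, and 3 of the 4 signals lay close together, with Mcm7 above them. Mcm7 had the highest, 6.74, on chromosome 12 from 21370849 to 21370904, 603 bp downstream of the TSS. Mcm4 had 5.15, 614 bp upstream of its TSS (chromosome 11 from 92564900 to 92564955). Mcm5 had 5.08, 91 bp downstream (chromosome 19 from 25637528 to 25637583), and Mcm6 had 4.89, 4 bp downstream. Mcm7 was above 71.9% of genes with a promoter peak and the other 3 were near the middle, between 49.1% and 52.9%. Mcm3 and Mcm2 had none. Mcm3 was assigned 5 peaks, the nearest 38.0 kb from its TSS, and Mcm2 had no assigned peak. Mcm4 was also assigned 25 peaks farther away, of which the highest, 82303 bp upstream, had a signal of 5.32. The span of Mcm5 in the authors' table was 44424 bp, against 21319 bp in the RefSeq gene table of assembly GRCr8, so the TSS in the table may differ from the current one.

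Promoter windows at RefSeq gene starts are printed for Chek1, Rbl2, Mki67 and Mcm7, which had the 4 highest promoter signals. Windows of MCM genes with and without a promoter peak are printed too. The start of Mcm5 in the authors' table may differ from the RefSeq one, so its window may not be where its peak lies. The windows of Mcm3 and Mcm2 were added after their values were seen. The windows run from 250 bases before to 50 bases after the RefSeq gene start, 5′ to 3′ on the strand of the gene, on assembly GRCr8, which is not the build of the peaks (rn5); no peak was placed on them. Their positions are chr12:22163129-22163428 (minus strand) for Mcm7, chr19:13488563-13488862 (plus) for Mcm5, chr9:30733697-30733996 (minus) for Mcm3, chr4:122918045-122918344 (minus) for Mcm2, chr8:44629794-44630093 (minus) for Chek1, chr19:32096362-32096661 (minus) for Rbl2 and chr1:199952544-199952843 (minus) for Mki67. Capitals mark matches to the motifs of E2F factors, to the CCAAT box and to the cell cycle homology region (CHR), searched on both strands as described below; neighbouring or overlapping matches form 1 capital run.
Mcm7: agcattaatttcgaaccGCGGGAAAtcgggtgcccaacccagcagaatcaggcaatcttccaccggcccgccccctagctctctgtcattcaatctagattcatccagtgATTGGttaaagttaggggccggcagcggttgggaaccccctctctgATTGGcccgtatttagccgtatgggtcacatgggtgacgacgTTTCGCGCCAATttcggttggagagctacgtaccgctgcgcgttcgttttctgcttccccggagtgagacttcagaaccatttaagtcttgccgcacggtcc
Mcm5: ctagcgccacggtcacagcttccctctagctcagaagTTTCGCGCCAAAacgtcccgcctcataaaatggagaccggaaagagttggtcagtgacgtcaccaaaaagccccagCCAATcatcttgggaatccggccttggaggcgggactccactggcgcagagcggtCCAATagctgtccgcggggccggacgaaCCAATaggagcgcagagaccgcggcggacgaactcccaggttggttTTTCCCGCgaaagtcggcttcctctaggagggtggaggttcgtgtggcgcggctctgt
Mcm3: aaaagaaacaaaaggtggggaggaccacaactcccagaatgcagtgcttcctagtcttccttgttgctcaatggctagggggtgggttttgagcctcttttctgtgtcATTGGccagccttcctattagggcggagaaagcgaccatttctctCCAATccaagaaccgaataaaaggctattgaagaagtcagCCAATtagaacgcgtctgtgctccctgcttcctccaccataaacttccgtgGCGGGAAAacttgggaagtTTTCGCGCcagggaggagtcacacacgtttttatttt
Mcm2: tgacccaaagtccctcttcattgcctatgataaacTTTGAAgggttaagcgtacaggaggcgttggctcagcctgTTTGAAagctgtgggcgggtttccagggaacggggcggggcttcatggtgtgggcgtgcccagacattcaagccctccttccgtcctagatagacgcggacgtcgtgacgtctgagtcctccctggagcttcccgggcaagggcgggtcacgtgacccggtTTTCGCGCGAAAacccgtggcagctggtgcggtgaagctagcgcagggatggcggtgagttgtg
Chek1: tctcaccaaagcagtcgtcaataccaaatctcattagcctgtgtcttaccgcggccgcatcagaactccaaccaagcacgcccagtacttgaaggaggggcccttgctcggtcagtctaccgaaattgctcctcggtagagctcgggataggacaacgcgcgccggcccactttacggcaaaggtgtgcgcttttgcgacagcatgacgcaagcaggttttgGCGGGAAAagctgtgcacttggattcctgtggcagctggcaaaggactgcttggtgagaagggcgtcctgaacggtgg
Rbl2: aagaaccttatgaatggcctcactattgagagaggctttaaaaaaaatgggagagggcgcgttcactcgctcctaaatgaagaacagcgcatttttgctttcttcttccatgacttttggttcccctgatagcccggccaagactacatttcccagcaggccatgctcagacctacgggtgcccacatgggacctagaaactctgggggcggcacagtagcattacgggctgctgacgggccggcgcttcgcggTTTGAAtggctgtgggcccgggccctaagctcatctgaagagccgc
Mki67: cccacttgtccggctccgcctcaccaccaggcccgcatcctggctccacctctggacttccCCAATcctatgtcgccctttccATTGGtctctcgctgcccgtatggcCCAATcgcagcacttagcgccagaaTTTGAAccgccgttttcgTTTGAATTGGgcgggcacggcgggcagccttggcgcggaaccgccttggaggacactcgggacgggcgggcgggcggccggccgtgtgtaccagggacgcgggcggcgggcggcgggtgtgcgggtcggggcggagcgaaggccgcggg

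All 4 printed MCM windows held an E2F match, with or without a promoter peak. Mcm7 had TTTCGCGC 52 bases before the gene start, overlapped by a CCAAT box, and a match on the other strand 233 bases before it. Mcm5 had 3 E2F matches, 2 of them overlapping, and 3 CCAAT boxes. Mcm3 had 2 E2F matches and 3 CCAAT boxes, and Mcm2 had 2 overlapping E2F matches and 2 CHR matches. In the Chek1 window an E2F match on the other strand lay 28 bases before the start. Mki67 had 4 CCAAT matches and 2 CHR matches and no E2F match. Rbl2 had 1 CHR match just after the start.

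The RefSeq promoter table matched 34 of the 45 genes, 16 with and 18 without a promoter peak. Not matched were Mcm4, Ccna2, Ccnd1, Ccnd2, Ccne2, Cdk6, Cdkn1c, Cdc6, E2f1, Aurkb and Wee1. The E2F motif was searched as TTTCCCGC, TTTGGCGC or TTTCGCGC, the CCAAT box as CCAAT and the CHR as TTTGAA, each on both strands, with overlaps counted. An E2F match was found in 12 of the 34 windows (35.3%, 19.7 to 53.5), against 400 of 15165 windows of protein-coding genes (2.64%) and 577 of all 33469 windows in the table (1.72%). CCAAT was found in 18 (52.9%, 35.1 to 70.2), against 38.2% and 37.5%, and CHR in 11 (32.4%, 17.4 to 50.5), against 15.4% and 18.3%. The list holds many known E2F targets, so the E2F share describes the list and not the antibody. Split by the peak, an E2F match was in 7 of 16 windows of genes with a promoter peak (43.8%, 19.8 to 70.1) and in 5 of 18 of genes without (27.8%, 9.69 to 53.5). CCAAT was in 9 of 16 and 9 of 18, and CHR in 4 of 16 (25%, 7.27 to 52.4) and 7 of 18 (38.9%, 17.3 to 64.3). The intervals are wide and overlap for all 3 motifs, and the difference between genes with and without a promoter peak was not tested. Among genes with a promoter peak, the spans of Ccnd3, Mad2l1, Mcm5 and Rb1 in the authors' table differed by over 10% from GRCr8. Among those without, the spans of Ccnb2, Cdk4, Cdkn2b, Cdkn2c and Rbl1 did. For these genes the window and the peak call may belong to different starts.

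The median GC content of the windows was 60.0% in cell cycle genes with a promoter peak and 60.5% in those without, against 63.3% in all genes with a promoter peak and 58.0% in all protein-coding genes. The median ratio of observed to expected CpG was 0.908 with a promoter peak and 0.845 without. Over all protein-coding genes it was 0.812 in the 5010 windows of genes with a promoter peak and 0.656 in the 15165 windows altogether. Windows of cell cycle genes were thus richer in CpG than those of all genes on both sides of the split, and the part of base composition in the share of 51.1% was not tested.

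**Figure D3:**
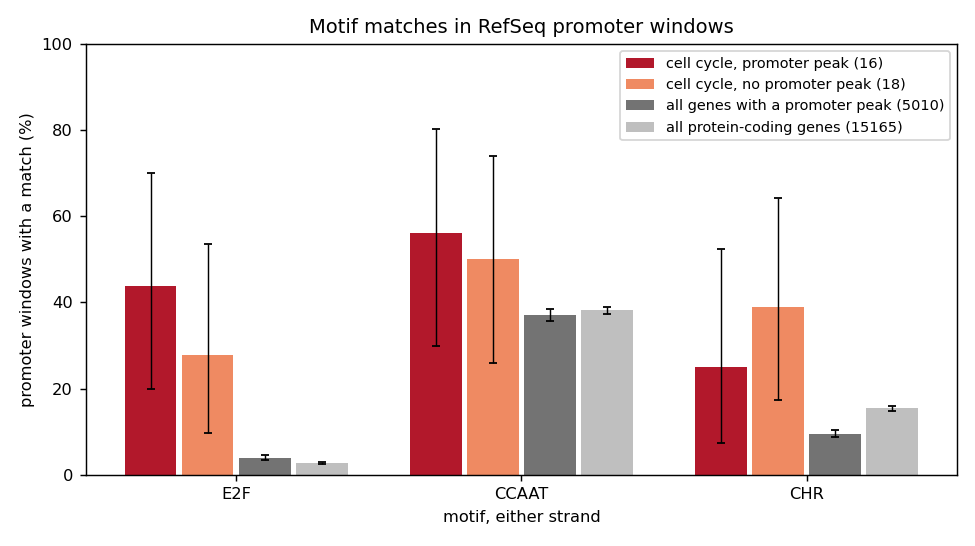
Share of RefSeq promoter windows (vertical axis, %) with a match to the E2F, CCAAT or CHR motif on either strand (horizontal axis), for cell cycle genes with a promoter peak (16 windows) and without (18), all genes with a promoter peak (5010) and all protein-coding genes (15165). Error bars are exact 95% binomial intervals. The E2F bars of the cell cycle genes, 43.8% and 27.8%, stand above the 3.97% and 2.64% of the other sets and overlap each other in their intervals.

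Of the genes that license origins and serve the fork, Pcna and Cdt1 had promoter peaks and Cdc6 and Gmnn did not. Pcna, the sliding clamp that holds polymerases on DNA, had 3 on chromosome 3. The peak from 131380022 to 131380077, 31 bp downstream of the start, reached 5.53, the one from 131379678 to 131379733 had 4.99, and the one from 131380317 to 131380372, 209 bp upstream, had 2.06. All peaks assigned to Pcna were promoter peaks. Cdt1, which loads the helicase, had 2 weak ones on chromosome 19: 3.00 from 66089506 to 66089561, 575 bp upstream, and 2.02 from 66090121 to 66090176, 95 bp downstream. Its highest peak, 4.90, lay in an exon 3622 bp downstream. Cdc6, the partner of Cdt1 in loading, had a single peak, 1777 bp upstream, with a signal of 3.18. Gmnn encodes geminin, the inhibitor of Cdt1, and its nearest assigned peak was 8.79 kb away.

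Among the G1 cyclins and kinases, Ccnd3 and Cdk6 had promoter peaks, whereas Ccnd1, Cdk4 and Ccnd2 did not. The Ccnd3 peak lay 1 bp upstream of the TSS in the table and had a signal of 5.01. The span of Ccnd3 there was 6031 bp, against 95504 bp in GRCr8, so this start may differ from the current one. Cdk6 had 3 promoter peaks on chromosome 4, with signals of 4.19 at 88 bp downstream (27869391 to 27869446), 2.60 at 154 bp upstream (27869688 to 27869743) and 3.66 at 570 bp upstream (27870104 to 27870159). They belonged to a run of 7 peaks over 3300 bp. In that run the 4 peaks beyond the promoter limit had signals of 3.82, 5.01, 6.64 and 9.09 at 1653, 1958, 2707 and 3101 bp upstream, so the signal was highest farthest from the TSS. Cdk6 was assigned 23 more peaks. Ccnd1 encodes cyclin D1, and its highest peak was also upstream: 11.1 at 3615 bp, on chromosome 1 from 224973273 to 224973328, above 99.5% of the table. Its nearest peak, 1624 bp downstream, had 5.79. Cdk4 had 1 peak, of 3.85, 1961 bp downstream. The nearest peak assigned to Ccnd2 was 53.3 kb away, and the nearest of any in the α1ACT 1804 list 45.3 kb.

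Of the genes for entry into S phase, Cdk2, Ccne1 and Ccna2 had promoter peaks and Ccne2 fell just outside the limit. Cdk2 had 1, of 5.14, 86 bp upstream of its TSS on chromosome 7 from 3105220 to 3105275. Ccne1, which encodes the cyclin E that activates Cdk2, had 4.94 at 426 bp downstream (chromosome 1 from 95583892 to 95583947) and 2.61 at 55 bp upstream (95584428 to 95584483). Ccna2, the cyclin of S phase and early mitosis, had 4.34 at 169 bp downstream (chromosome 2 from 142897093 to 142897148) and 3.87 at 13 bp upstream (142897330 to 142897385). Both cyclin genes thus had 1 peak on each side of the TSS, the stronger of them downstream. Ccne2 had a peak of 5.03 listed at 1035 bp upstream. At the other side of the limit, the farthest gene inside was Cdkn1c at 984 bp with 2.84. The authors' distance ran to the farther edge of the peak for plus-strand genes and to the nearer edge for minus-strand genes. By the nearer edge the Ccne2 peak was at 980 bp. By the farther edge the 56 bp wide peak of Cdkn1c, a minus-strand gene, would lie beyond 1000 bp.

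Mitotic entry held the strongest promoter peak of the list. Chek1, the checkpoint kinase that stalls the cycle when replication forks are damaged, had a signal of 12.8 on chromosome 8 from 39204203 to 39204258, 188 bp downstream of its TSS. That was above 99.7% of all peaks in the table and above 97% of the 6096 genes by their highest promoter peak. Wee1 encodes the kinase that holds Cdk1 inactive, and it had 6.59 at 529 bp downstream (chromosome 1 from 181768364 to 181768419) and 3.04 at 308 bp downstream (181768143 to 181768198). Cdc25a, the phosphatase that removes inhibitory phosphates from Cdk kinases, had 4.23 at 141 bp downstream. The core of the mitotic kinase had no promoter peak: the nearest assigned peak was 5.93 kb away for Ccnb1 and 4.84 kb for Cdk1. Cdc25b, of the same phosphatase family as Cdc25a, had no assigned peak. Of the 14 peaks assigned to Cdk1, 10 lay within its neighbour Ank3, the highest with 7.57. Ccnb2 was placed on chromosome 1 over 1495 bp in the authors' table, but on chromosome 8 over 13259 bp in GRCr8, so its assigned peaks may not be at the gene. The nearest of them was 63.9 kb from the TSS in the table, and the nearest of any in the α1ACT 1804 list 3.03 kb.

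Of the 6 inhibitors of cyclin-dependent kinases, 1 had a promoter peak, beside 32.9% of all protein-coding genes. This was the lowest share of the 9 roles, but no interval was computed for so few genes. Cdkn1c, an imprinted inhibitor of G1 kinases, had a promoter peak of 2.84 at the edge of the limit, above 14.4% of genes with one. Its strongest peak was 7.22, 2365 bp downstream of the TSS of another of its transcripts, on chromosome 1 from 223521551 to 223521606, and 6 of its 10 peaks lay within the neighbouring gene Kcnq1. Cdkn1a, a target of p53 that stops the cycle after DNA damage, had no promoter peak but 4 peaks in an intron of its own, with signals of 4.03, 6.08, 2.88 and 5.16 from 3045 to 4813 bp downstream. The nearest assigned peak was 3.44 kb away for Cdkn2b and 6.72 kb for Cdkn2c. Cdkn1b and Cdkn2a had no assigned peak. No difference between roles was tested.

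Rbl2, Rb1 and E2f1 had promoter peaks, and Rbl1 had its nearest peak at 1547 bp, with a signal of 2.04. Rbl2 is a retinoblastoma-family protein of resting cells, and its peak over the TSS, on chromosome 19 from 28410897 to 28410952, had 7.90, the highest promoter signal after Chek1. Its other promoter peak, 213 bp downstream (28410652 to 28410707), had 4.32. A stronger peak assigned to it, of 10.1, lay 297872 bp upstream. Rb1, the retinoblastoma gene itself, had 4.82 at 55 bp downstream. The TSS that the table gives Rb1 was 101 bp from that of Itm2b, and its span was 196095 bp against 131132 bp in GRCr8, so the peak cannot be told apart from one of Itm2b. E2f1, the transcription factor that the retinoblastoma proteins restrain, had 3.53 at 659 bp downstream.

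Mitotic kinases and the spindle checkpoint gave 4 of 7 genes with a promoter peak, beside 32.9% of all protein-coding genes. Of the 4, 3 were near the lower end of the list. Aurkb, the kinase that corrects attachment of chromosomes to the spindle, had 6.06 at 192 bp downstream on chromosome 10 from 55369683 to 55369738. Plk1 and Bub1 had 2.23 each, at 282 and 341 bp downstream, and Mad2l1 had 2.21 at 225 bp downstream. These 3 lay above 3.13%, 2.94% and 2.40% of genes with a promoter peak. Peaks this low are close to the lowest signal of a promoter peak of the list, 2.02. Plk1 is a mitotic kinase, and Bub1 and Mad2l1 hold anaphase until all chromosomes are attached. Aurka, Cdc20 and Bub1b, of the same pathway, had no assigned peak. Mki67, whose protein coats mitotic chromosomes and serves as a proliferation marker, had 6.84 at 162 bp downstream on chromosome 1 from 214952264 to 214952319. Top2a, which untangles DNA, had its nearest peak at 2167 bp, with 2.43.

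Of the 15 genes with assigned peaks but no promoter peak, 6 had their nearest assigned one between 1000 and 3000 bp from the TSS: Ccne2, Rbl1, Ccnd1, Cdc6, Cdk4 and Top2a. Another 6 had it between 3.04 and 8.79 kb away: Cdkn1a, Cdkn2b, Cdk1, Ccnb1, Cdkn2c and Gmnn. The last 3, Mcm3, Ccnd2 and Ccnb2, had it 38.0 to 63.9 kb away. Each peak was assigned to 1 gene, so a peak at a shared start can stand under a neighbour. Of the 34 genes matched in the RefSeq promoter table, 7 had the start of a neighbour close by, and 5 of these 7 had no promoter peak of their own. The others were Cdt1 and Mcm7, whose neighbour was Ap4m1. None of the 7 neighbours had a promoter peak in the authors' table. Apart from Ap4m1, these neighbours were loci with LOC symbols in GRCr8. Whether the authors' annotation held each of them was not tested, so the count cannot show whether peaks stood under a neighbour. Itm2b, whose TSS in the table was 101 bp from that of Rb1, was not among the 7.

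**Figure D4:**
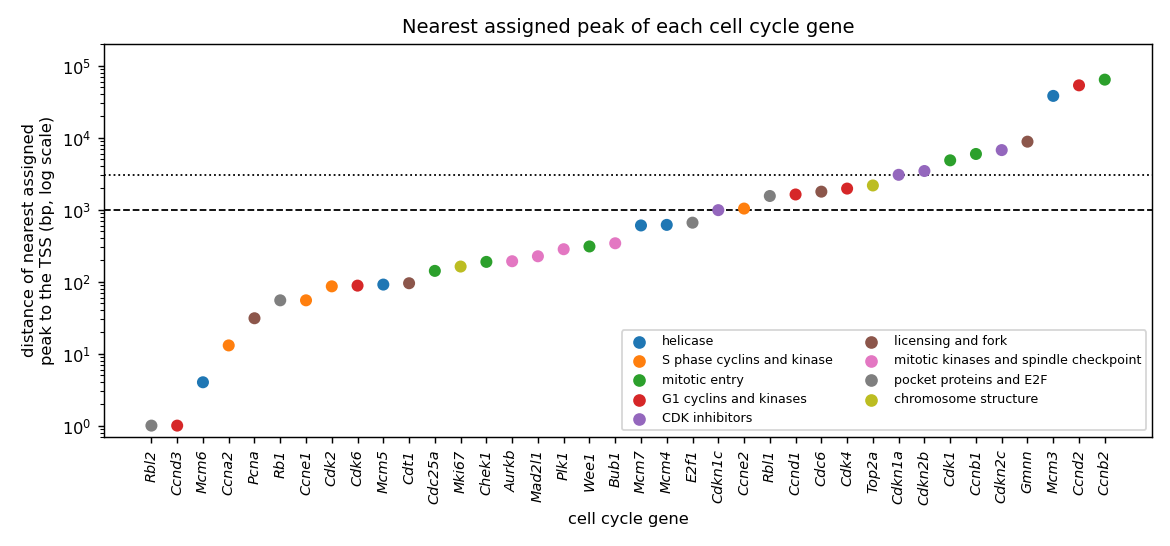
Distance from the TSS to the nearest assigned peak (vertical axis, bp, log scale) for the 38 cell cycle genes with an assigned peak, in order of distance (horizontal axis) and coloured by role. Dashed and dotted lines mark 1000 and 3000 bp, and the Rbl2 peak, which lies over the TSS, is drawn at 1 bp. Between them lie 6 genes, from Ccne2 at 1035 bp to Top2a at 2167 bp.

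Promoter peaks of the cell cycle genes lay mostly just downstream of the TSS, as in the rest of the table. Of the 32, 22 were over or downstream of it (68.8%, 50.0 to 83.9), against 6033 of 9000 promoter peaks of all protein-coding genes (67.0%). The interval treats peaks of the same gene as independent. The 250 bp after the TSS held 14 (43.8%), against 36.5%, and the 250 bp before it held 6 (18.8%), against 17.0%. The strongest promoter peak of a gene was over or downstream of the TSS in 18 of the 23 genes and upstream in 5. Its median distance was 188 bp, against 192 bp over all genes with a promoter peak.

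**Figure D5:**
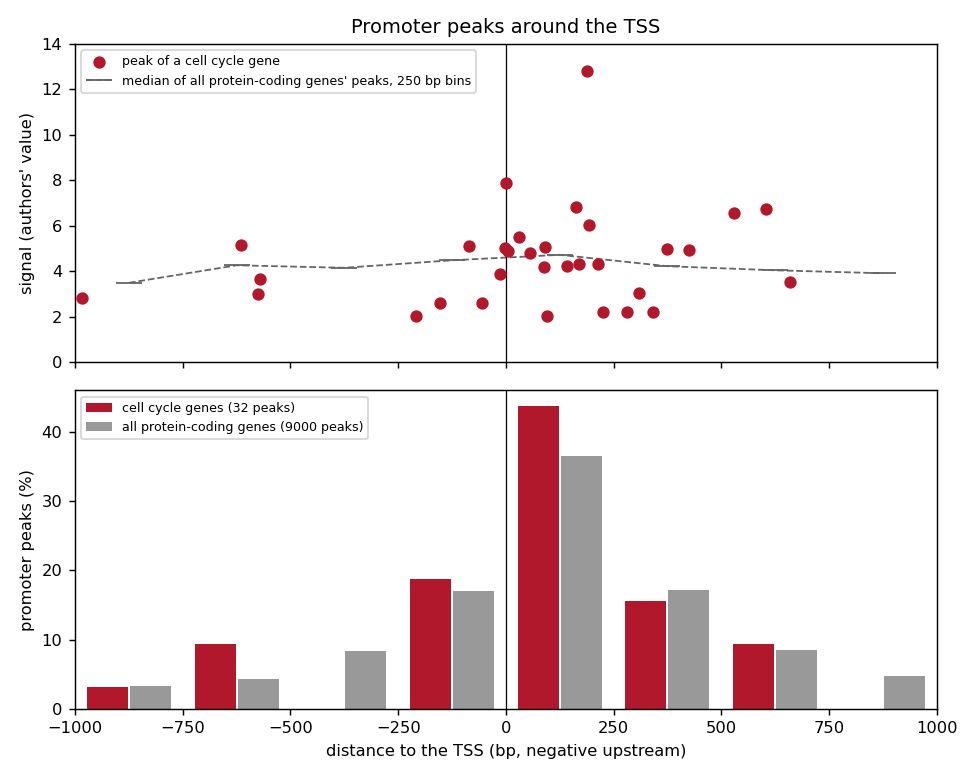
Upper panel, signal (vertical axis, the authors' value) of the 32 promoter peaks of cell cycle genes by distance to the TSS (horizontal axis, bp, negative upstream), with the median signal of all promoter peaks of protein-coding genes in bins of 250 bp as dashes. Lower panel, share of promoter peaks (vertical axis, %) in the same bins for cell cycle genes (32 peaks) and all protein-coding genes (9000 peaks). The bin from 0 to 250 bp downstream is the fullest in both, with 43.8% and 36.5%, and the bins from 250 to 500 bp upstream and 750 to 1000 bp downstream hold no cell cycle peak.

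Most peaks assigned to the cell cycle genes were not in promoters. Of the 233, 32 lay within 1000 bp of the TSS (13.7%, 9.59 to 18.8), against 5.75% of the table, and 133 were distal intergenic (57.1%), against 74.6%. The interval treats peaks as independent, although Cdk6 alone had 30 of them and Mcm4 26, so it is too narrow. The 201 other peaks had a median signal of 3.10, against 4.33 for the 32 promoter peaks. Of 51 peaks annotated to exons or introns, 26 were in the cell cycle gene itself and 25 in another gene nearby. Most of the 25 were peaks of Cdk1 within Ank3 or of Cdkn1c within Kcnq1. The same split over the whole table was not counted. In 15 of the 38 genes the strongest assigned peak was a promoter peak; the same share over all genes was not counted, so whether 15 is many or few is unknown. Genes with a promoter peak had a median of 4 assigned peaks and those without a median of 3, and their median spans in the table were 10861 and 10443 bp.

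The other lists held no peak at any of these promoters. Within 1000 bp of the TSSs of the 38 genes that could be placed, the α1ACT M2, empty-vector 1804 and empty-vector M2 lists each had 0, which allows a share of up to 7.89%. With only 81, 272 and 244 peaks, these lists could reach few promoters of any genes, so the 0 says little about the cell cycle genes. The share over all genes was not counted. The nearest was 1230 kb away in the α1ACT M2 list and 105 kb away in each empty-vector list, closest to Bub1. The lowest signal deposited was 53.6 in the α1ACT M2 list, 14 in the empty-vector 1804 list and 19 in the empty-vector M2 list, all above the 12.8 of Chek1. How the signal was scaled between lists is not stated. Whether the α1ACT and empty-vector lines differed at these promoters cannot be told apart from differences in how each list was called.

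A wider list of 100 other cell cycle genes, among them origin recognition, polymerase, condensin, cohesin and anaphase-promoting complex genes, was set beside the 45. Of the 100, 42 had a promoter peak (42.0%, 32.2 to 52.3), an interval that includes the 32.9% of all genes, with a median highest signal of 4.50. The 5 highest were Tk1, a thymidine kinase that supplies nucleotides for DNA synthesis, with 13.4; Prc1, which bundles microtubules of the central spindle, with 11.7; the replication ligase Lig1 with 9.89; Ccnh, the cyclin of the Cdk-activating kinase, with 9.58; and the checkpoint gene Bub3 with 9.48. Tk1 exceeded the 12.8 of Chek1. Within 3000 bp the share was 48.0%, against 39.6% of all genes, for any assigned peak it was 73.0%, against 74.7%, and in the upper 10% by signal it was 18.0%, against 15.1%.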

How the data were processed

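PC12 cells expressing α1ACT or the empty vector were profiled by ChIP-seq, with 1 library for each of 6 groups. The authors deposited 4 peak lists in the narrowPeak layout, whose signal and −log10 q-value columns are theirs; how the signal was scaled, how peaks were called and how the inputs were used is not given in the sources used here. Their deposited annotated table gives a gene, a feature and a signed distance in bp to the TSS per peak. Per the submitters' processing notes, the genome build was rn5 and the tools named were BWA 0.7.5a, HOMER, ChIPseeker, DiffBind and FastQC 0.11.2. All peak coordinates are rn5, 1-based. Inputs were not analysed here.

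Signals were joined to the table by chromosome and start (pandas 2.3.3, Python 3.11.15). The members and lists were chosen with earlier results of these data known. As background served 18539 protein-coding genes of the RefSeq gene table (GRCr8) that have a curated transcript, matched by gene ID, of which 13854 had an assigned peak; genes without a row count as without a peak. Intervals are exact Clopper-Pearson 95% intervals (scipy 1.17.1) and cover counting error only. They treat genes as independent, and where peaks were counted they treat peaks as independent, also those of the same gene. A count of 0 is given as a limit of 3 counts. The counting functions were tested on simulated data. Coordinates are given for the 10 members with the highest promoter signal and for members with 2 or more promoter peaks, and, chosen after their values were seen, for the strongest peaks of Ccnd1 and Cdkn1c. Of the other cell cycle genes the 5 highest are named. Alternatives were distance limits of 500 and 3000 bp, signal limits, merged peaks, summed signals, other denominators and 1-strand motif searches.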

Additional observations from a re-analysis of the deposited data

How the results depend on the processing

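The share of cell cycle genes with a promoter peak stayed above that of all genes in each alternative tried, by the least in the upper 10% by signal (15.6% against 15.1%); with any assigned peak it was 84.4% against 74.7%. For the 100 other cell cycle genes the shares outside the interval of the value at 1000 bp were 18.0% against 15.1% in the upper 10%, 73.0% against 74.7% for any assigned peak, and 57.5% against 44.0% among genes with an assigned peak. Without Ccnb2, Mcm5 and Rb1, which lie on another chromosome than in GRCr8 or are over 10% longer (an alternative chosen after seeing the data), the share of cell cycle genes was 50.0% (21 of 42). It was also 50.0% (17 of 34) without these 3, Aurkb, Ccnd3, Cdk4, Cdkn2b, Cdkn2c, Mad2l1, Rbl1 and Wee1, which adds genes whose span is over 10% shorter in the table and was likewise chosen after seeing the data. The 32 promoter peaks became 25 when starts within 500 bp were merged. The median highest signal was 4.89 within 500 bp and 5.01 within 3000 bp, against 4.96 and 4.73 over all genes; summed per gene it was 5.14, against 5.91. Counting every peak of all 4 lists by its nearer edge gave 24 genes, which adds Ccne2 and rests on the α1ACT 1804 list alone. The count by the farther edge was not made, and by it Cdkn1c would fall outside the limit. On 1 strand the CCAAT share was 32.4%, against 21.5%. No paired analysis was possible because each group holds 1 library. Read depth is unknown, so an absent peak does not show an absent factor.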
